A study of Mus musculus with 8 samples.

Results

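The Hox genes of clusters A to D were described here as 1 family. They were taken by symbol from the gene names of the arrays, which gave 38 Hox genes among 34736 names with a value. Cluster A held 10 of them, cluster B 10, cluster C 9 and cluster D 9, and each was placed by its paralog group into an anterior set (groups 1 to 3, 7 genes), a middle set (groups 4 to 8, 15 genes) or a posterior set (groups 9 to 13, 16 genes). The study compared mouse embryonic stem (ES) cells with 1 copy of the R141C missense change in Nkx2-5, a homeobox factor of heart precursors, with wild-type (WT) ES cells. The 4 groups were R141C cells at day 6 of differentiation, WT cells at day 6, undifferentiated R141C cells at day 0 and undifferentiated WT cells at day 0, with 2 biological replicates each and 1 single-colour Agilent array per replicate. Differentiation went without LIF, the cytokine that keeps ES cells undifferentiated, through embryoid bodies: 800 cells per hanging drop for 2 days, 3 days in suspension and 24 hours plated from day 5. The labels name neither the number of cell lines nor clones behind a genotype, nor separate cultures behind the replicates, so genotype and cell line cannot be told apart and p-values measure only the spread between these arrays. No other mutation, transgene or agent is named for any of the groups.

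Hox genes code for homeodomain transcription factors that give cells their position along the head-to-tail axis. In the mouse embryo the genes at the 3′ end of each cluster come on first and reach the hindbrain, while genes nearer the 5′ end come on later and mark trunk, tail and limb ends. Retinoic acid and the Cdx factors are known activators of the clusters, Polycomb complexes hold them silent in ES cells, and Pbx and Meis proteins bind DNA together with Hox proteins.

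The 4 upstream regions below are shown because they belong to genes that the results below turn on and because they carry letters of those regulators. Each is the stretch of 250 bases upstream of the transcription start on GRCm38.p6, from RefSeq, written 5′ to 3′ on the strand of the gene. Hoxb1 lies at chr11:96365508-96365757 on the plus strand, Hoxa2 at chr6:52164832-52165081 on the minus strand, Hoxb8 at chr11:96281655-96281904 on the plus strand and Hoxd4 at chr2:74721728-74721977 on the plus strand. Capitals mark the Hox and Pbx form TGATNNAT in the first and the second, the Cdx form TTTATNG in the third, and TTTATNG and the retinoic acid receptor site AGGTCA (read on the other strand) in the fourth. Such a Hox and Pbx form near mouse Hoxb1 is known from its autoregulation.
Hoxb1: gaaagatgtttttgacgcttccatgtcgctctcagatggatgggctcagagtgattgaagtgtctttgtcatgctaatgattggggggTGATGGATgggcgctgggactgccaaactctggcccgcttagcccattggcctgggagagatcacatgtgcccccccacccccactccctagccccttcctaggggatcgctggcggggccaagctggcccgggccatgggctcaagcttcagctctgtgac
Hoxa2: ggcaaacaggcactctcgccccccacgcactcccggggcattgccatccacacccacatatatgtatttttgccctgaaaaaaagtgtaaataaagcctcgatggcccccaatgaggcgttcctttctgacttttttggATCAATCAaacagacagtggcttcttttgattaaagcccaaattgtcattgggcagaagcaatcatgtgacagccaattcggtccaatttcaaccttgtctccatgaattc
Hoxb8: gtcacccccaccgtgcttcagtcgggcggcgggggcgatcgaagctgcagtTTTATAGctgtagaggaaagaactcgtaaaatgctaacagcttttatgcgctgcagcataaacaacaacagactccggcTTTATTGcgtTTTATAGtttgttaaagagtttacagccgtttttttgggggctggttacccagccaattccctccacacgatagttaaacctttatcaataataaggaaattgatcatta
Hoxd4: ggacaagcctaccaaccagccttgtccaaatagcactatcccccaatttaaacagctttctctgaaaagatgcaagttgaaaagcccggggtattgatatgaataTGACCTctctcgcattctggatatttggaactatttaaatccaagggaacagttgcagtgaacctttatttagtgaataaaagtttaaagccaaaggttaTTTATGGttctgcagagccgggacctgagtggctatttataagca
Both strands were searched, and none of the 3 forms overlaps another in these regions. Of 32851 RefSeq promoters of this length, TGATNNAT was in 7.68%, TTTATNG in 9.81% and AGGTCA in 14.0%. Promoters of 22 Hox genes were matched, 24 in all, of which 4 held TGATNNAT (Hoxa2, Hoxb1, Hoxb8 and Hoxd11), 2 held TTTATNG (Hoxb8 and Hoxd4) and 6 held AGGTCA (Hoxb4, Hoxc4, Hoxd3, Hoxd4, Hoxd8 and Hoxd10).

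Paralogs share their homeobox, so the 43 probes of the Hox genes were set against each other. The longest run of bases shared by probes of different Hox genes was 11, between Hoxc11 and Hoxc12 and between Hoxb4 and Hoxc11. On the mm9 positions of the probes, cluster A spanned chr6:52112595-52209039, cluster B chr11:96057854-96228510, cluster C chr15:102759058-102867272 and cluster D chr2:74509248-74603059.

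All signals below are log2 of the processed intensity of a gene's brightest probe, with the 75th percentile of every array at 0. Across the 8 arrays that percentile lay between 936 and 1848 intensity units, and 55.8% to 70.5% of probes were well above background. All arrays were on 1 slide, with day 6 in one column and day 0 in the other and R141C below WT, so slide position cannot be told apart from the groups. ES cell markers checked the labels: all 10 were above background on every array, with a summed level (75th percentile of an array as 1) of 113 to 136 in R141C and 74.3 to 81.9 in WT cells at day 6, against 377 to 486 in R141C and 477 to 602 in WT cells at day 0. The Nkx2-5 probe measures the transcript and not the point change, and gave 1.53 and 1.58 in R141C against 1.93 and 1.79 in WT cells at day 6, and 1.84 and -0.77 in R141C against -1.27 and -2.02 in WT cells at day 0. Replicates stood apart in 3 groups. Cardiomyocyte markers summed to 11.7 on R141C day 6 replicate 1 and 153 on replicate 2, and replicate 2 correlated across all genes more closely with the WT day 6 arrays (r = 0.988 and 0.9887) than with replicate 1 (r = 0.9819). At day 0 the R141C replicates correlated at 0.9863, and WT replicate 1 was closer to both of them (r = 0.9913 and 0.9872) than to WT replicate 2 (r = 0.9825).

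Detection of the family was broadest in R141C cells at day 6. On the 2 arrays of each group, 38 and 35 of the 38 Hox genes were well above background in R141C cells and 27 and 31 in WT cells at day 6, against 33 and 24 in R141C cells and 28 and 22 in WT cells at day 0. The shares of all probes well above background were 61.0% and 62.6% in R141C and 60.3% and 55.8% in WT cells at day 6. At day 0 they were 68.7% and 64.6% in R141C and 67.1% and 70.5% in WT cells. At day 6 the genotypes differed most in the posterior set of 16 genes. Of these, 16 and 14 were above background in R141C cells and 7 and 12 in WT cells. At day 0, 14 and 8 posterior genes were above background in R141C cells and 11 and 8 in WT cells. Only 17 Hox genes were above background on all 8 arrays. Tests covered genes that both arrays of some group showed above background, 36 of the 38. Hoxa5 was above background on 1 array each of R141C day 6, WT day 6 and R141C day 0, Hoxd12 on R141C day 6 replicate 1 alone, and neither was tested. A gene that passed only through its bright group had to differ between groups, so counts and medians over the 36 genes are descriptions and not evidence about the family.

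**Figure D1:**
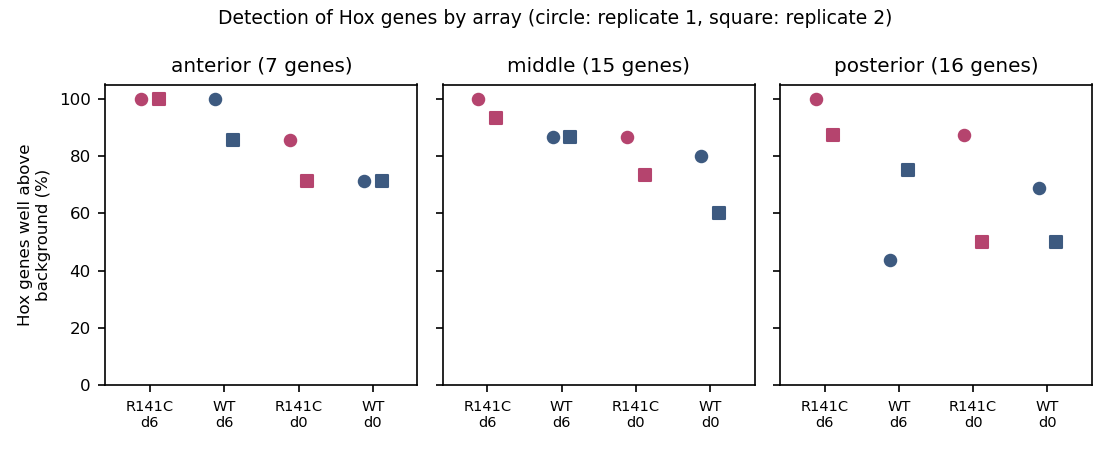
Percent of anterior, middle and posterior Hox genes (vertical axis) well above background on each array, by group (horizontal axis); circles are replicate 1 and squares replicate 2. All 16 posterior genes were above background on R141C day 6 replicate 1, and 7 on WT day 6 replicate 1.

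**Figure D2:**
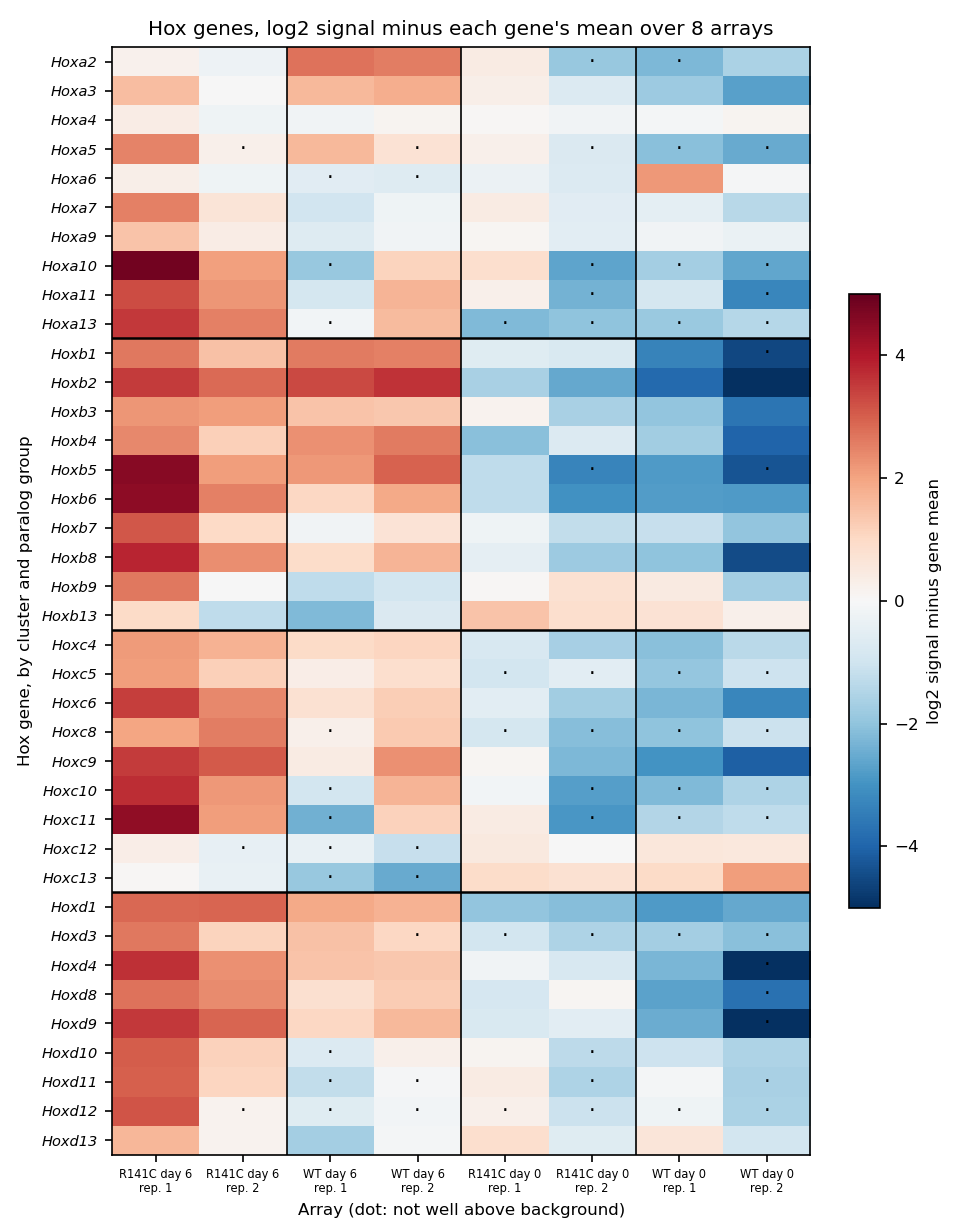
Signal of the 38 Hox genes (rows, by cluster and paralog group) on the 8 arrays (columns), as log2 signal minus the gene's own mean over the arrays; a dot marks a value not well above background. The day 6 mean was above the day 0 mean for 33 of 36 tested genes in R141C cells and for 28 of 36 in WT cells.

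Between day 0 and day 6 genes of every cluster rose in both genotypes, fewest in cluster A. Of the tested genes, 1 of 9 rose in R141C cells and 3 of 9 in WT cells in cluster A, 8 and 7 of 10 in cluster B, 6 and 5 of 9 in cluster C, and 4 and 5 of 8 in cluster D. In R141C cells 19 of 36 tested Hox genes rose and 0 fell, where 7.60% of all 25892 genes tested rose and 8.03% fell. In WT cells 20 rose and 2 fell, where 11.0% of all genes rose and 12.9% fell. A gene was called where its Benjamini-Hochberg adjusted p from limma was under 0.05. The median difference over the 36 genes was 3.02 log2 units in R141C cells and 2.42 in WT cells, with medians over all genes of -0.03 and -0.12. Differences were above 0 for 33 of 36 genes in R141C cells and 28 of 36 in WT cells, where 48.1% and 42.9% of all genes were. The R141C and WT medians were 2.81 and 1.71 with dim genes at their bound, and 2.18 and 0.98 with normexp background correction. Over the 17 genes above background on all 8 arrays they were 2.85 and 3.77, so the order of the genotypes was reversed. In these comparisons the 2 genotypes share no array but share 1 fit and its estimate of the spread, so their lists are not independent. Of the Hox genes 17 rose in both, which is 89.5% of the R141C list and 85.0% of the WT list. Over all genes 6.19% rose in both, 81.4% of the R141C list and 56.0% of the WT list. The 17 were Hoxb1, Hoxb2, Hoxb3, Hoxd1 and Hoxd3 of the anterior set, Hoxb4, Hoxb5, Hoxb6, Hoxb8, Hoxc4, Hoxc5, Hoxc6, Hoxc8 and Hoxd8 of the middle set, and Hoxc9, Hoxd9 and Hoxa13 of the posterior set. In bulk RNA, more cells of a type and more RNA per cell cannot be told apart. Calls were fewer without some arrays: in R141C cells 9 genes passed when either R141C day 0 replicate 2 or R141C day 6 replicate 1 was left out, and 13 when R141C day 0 replicate 1 was. In WT cells 13 passed when WT day 6 replicate 2 was left out.

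In the anterior set, Hoxb2 had the largest difference in both genotypes. Hoxb1, which specifies a segment of the mouse hindbrain, had signals of -0.02 and -1.20 at day 6 against -3.27 and -3.44 at day 0 in R141C cells, and -0.07 and -0.14 at day 6 against -6.0 and -7.24 at day 0 in WT cells. Its groups did not overlap in either genotype, and the rise was 2.74 ± 0.50 in R141C cells (SE, 6.69-fold, limma adjusted p = 0.0151) and 6.52 ± 0.50 in WT cells (91.5-fold, adjusted p = 0.000614). Hoxb1 was not above background on WT day 0 replicate 2, so its WT fold rests in part on a dim value. For Hoxb1, the R141C call was lost without R141C day 0 replicate 1 or 2 or R141C day 6 replicate 1 (adjusted p = 0.0550 to 0.0708). Hoxb2, a hindbrain gene next to it, had 2.92 and 2.26 at day 6 against -2.18 and -3.13 at day 0 in R141C cells, and 2.73 and 3.06 at day 6 against -4.46 and -5.69 at day 0 in WT cells. That was a rise of 5.24 ± 0.50 in R141C cells (37.9-fold, limma adjusted p = 0.00183) and 7.97 ± 0.50 in WT cells (251-fold, adjusted p = 0.000390), the largest rise of any Hox gene tested in WT cells. The day 6 signals of both genes lay close together in the 2 genotypes, and the day 0 signals were lower in WT cells than in R141C cells. Hoxb3, a gene of the hindbrain and pharyngeal arches, had -0.05 and -0.16 at day 6 against -2.06 and -3.85 at day 0 in R141C cells, and -0.81 and -0.90 at day 6 against -4.22 and -5.91 at day 0 in WT cells. The rise was 2.85 ± 0.69 in R141C cells (limma adjusted p = 0.0378) and 4.21 ± 0.69 in WT cells (adjusted p = 0.00768). For Hoxb3, the R141C call was lost without R141C day 0 replicate 2, WT day 6 replicate 1 or 2 or R141C day 6 replicate 1 or 2 (adjusted p = 0.0699 to 0.130). A dimmer Hoxb3 probe, above background on 4 arrays, gave differences of 5.46 and 7.12 in R141C and WT cells.

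Hoxd1, known in the mouse for its role in pain-sensing neurons, had the smallest standard error of the family. Its signals were 0.30 and 0.34 at day 6 against -4.54 and -4.71 at day 0 in R141C cells, and -0.67 and -0.83 at day 6 against -5.40 and -5.14 at day 0 in WT cells. The rise was 4.95 ± 0.20 in R141C cells (30.9-fold, limma adjusted p = 0.000437) and 4.52 ± 0.20 in WT cells (22.9-fold, adjusted p = 0.000248), and it stayed called without any 1 array. Hoxd3 was not above background on any day 0 array, and its rise was at least 3.40-fold in R141C cells and at least 2.62-fold in WT cells (limma adjusted p = 0.0105 and 0.00697). For Hoxd3, the R141C call was lost without R141C day 0 replicate 2 (adjusted p = 0.0531). Such a bound sets the mean of the bright group against the higher, on each dim array, of the gene's own signal and the lowest signal among probes above background.

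The cluster A anterior genes rose in WT cells and missed the threshold in R141C cells. Hoxa2, which patterns the hindbrain and the skeleton of the hyoid arch, had -4.57 and -5.03 at day 6 against -4.39 and -6.68 at day 0 in R141C cells, and -2.07 and -2.22 at day 6 against -7.03 and -6.36 at day 0 in WT cells. The WT day 6 arrays were above all 6 others, and the R141C arrays of the 2 days overlapped. R141C day 0 replicate 2 and WT day 0 replicate 1 were not above background. The difference was 0.73 ± 0.69 in R141C cells (limma adjusted p = 0.517) and 4.55 ± 0.69 in WT cells (23.5-fold, adjusted p = 0.00556). Leaving out R141C day 0 replicate 1 raised the R141C difference of Hoxa2 to 1.88, which passed (adjusted p = 0.0483), and leaving out its replicate 2 gave -0.41. Hoxa3, a gene of pharyngeal arches, thymus and parathyroid, had -0.97 and -2.51 at day 6 against -2.22 and -3.19 at day 0 in R141C cells, and -0.86 and -0.69 at day 6 against -4.33 and -5.20 at day 0 in WT cells. Its difference was 0.97 ± 0.58 in R141C cells (limma adjusted p = 0.312) and 3.99 ± 0.58 in WT cells (15.9-fold, adjusted p = 0.00486). All 7 anterior genes rose in WT cells, with a median of 4.52, and 5 of 7 in R141C cells, with a median of 2.85.

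**Figure D3:**
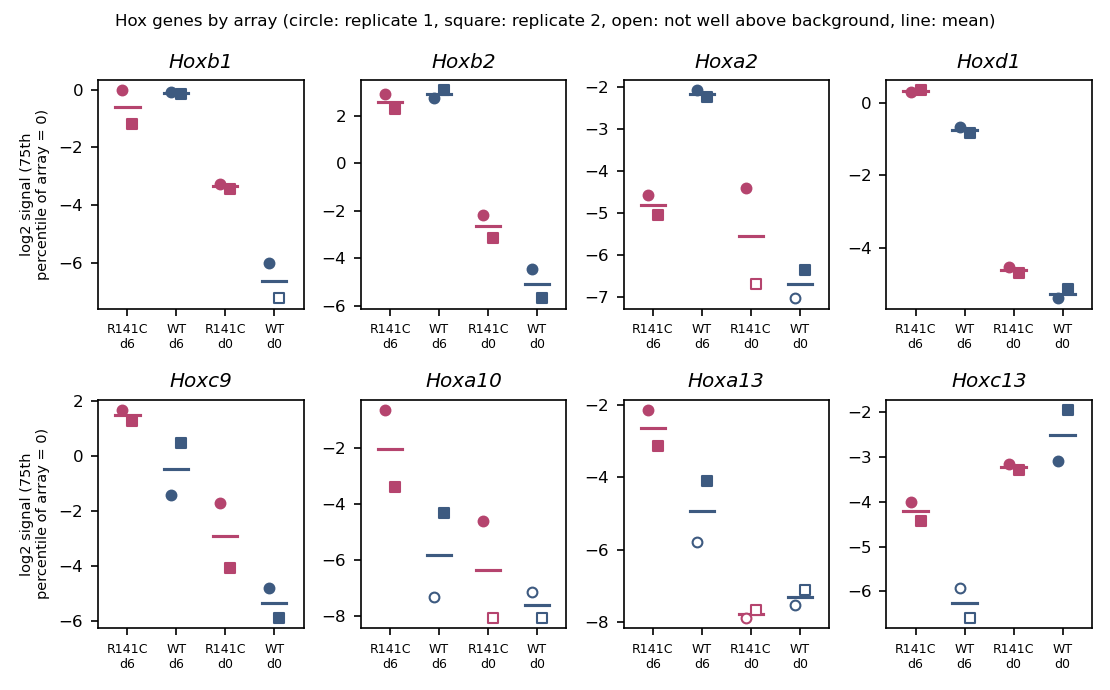
Log2 signal of 8 Hox genes (vertical axes, own scale for each gene) in R141C and WT cells at day 6 (d6) and day 0 (d0); circles are replicate 1, squares replicate 2, open points not well above background and lines group means. Hoxb1 and Hoxb2 had closer signals in the genotypes at day 6 than at day 0, Hoxa2 was highest in WT cells at day 6, and Hoxc13 was lowest there.

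In each genotype 10 of 14 tested middle genes rose, none of them in cluster A, with a median difference of 3.16 in R141C cells and 3.26 in WT cells. Hoxb4, known for the growth of blood stem cells, had 2.62 and 1.40 at day 6 against -1.85 and -0.45 at day 0 in R141C cells, and 2.51 and 2.83 at day 6 against -1.51 and -3.77 at day 0 in WT cells. It rose by 3.16 ± 0.82 in R141C cells (limma adjusted p = 0.0456) and by 5.31 ± 0.82 in WT cells (39.7-fold, adjusted p = 0.00602). For Hoxb4, the R141C call was lost without R141C day 0 replicate 1 or 2, WT day 6 replicate 1 or 2 or R141C day 6 replicate 1 or 2 (adjusted p = 0.0676 to 0.207). Hoxb5, a gene of trunk mesoderm and the enteric nervous system, had 1.60 and -0.85 at day 6 against -4.20 and -6.25 at day 0 in R141C cells, and -0.78 and -0.01 at day 6 against -5.79 and -7.28 at day 0 in WT cells. Its rise was 5.60 ± 1.0 in R141C cells (48.5-fold, limma adjusted p = 0.0144) and 6.14 ± 1.0 in WT cells (70.3-fold, adjusted p = 0.00735). Day 0 replicate 2 was not above background in either genotype, so both folds rest in part on dim values. For Hoxb5, the R141C call was lost without R141C day 0 replicate 2 or R141C day 6 replicate 1 (adjusted p = 0.0522 to 0.0626) and the WT call was lost without WT day 6 replicate 2 (adjusted p = 0.0517).

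Hoxb6, a trunk gene of lateral mesoderm, had the largest rise in R141C cells. It had 2.88 and 0.94 at day 6 against -2.84 and -4.60 at day 0 in R141C cells, and -0.54 and 0.32 at day 6 against -4.36 and -4.39 at day 0 in WT cells. That was 5.63 ± 0.77 in R141C cells (49.5-fold, limma adjusted p = 0.00601) and 4.27 ± 0.77 in WT cells (19.3-fold, adjusted p = 0.0104). For Hoxb6, the WT call was lost without WT day 6 replicate 2 (adjusted p = 0.0706). Hoxb8, a gene of the trunk nervous system and of myeloid cells whose promoter above held the Cdx letters 3 times, had 3.36 and 1.87 at day 6 against -0.90 and -2.29 at day 0 in R141C cells, and 0.45 and 1.23 at day 6 against -2.46 and -4.93 at day 0 in WT cells. Its rise was 4.21 ± 0.92 in R141C cells (limma adjusted p = 0.0267) and 4.54 ± 0.92 in WT cells (adjusted p = 0.0149). For Hoxb8, the R141C call was lost without R141C day 0 replicate 1 or 2 or R141C day 6 replicate 1 (adjusted p = 0.0665 to 0.114) and the WT call was lost without WT day 6 replicate 1 or 2 (adjusted p = 0.0553 to 0.0905). Hoxc6, a gene of the forelimb level, had 1.55 and 0.48 at day 6 against -2.46 and -3.66 at day 0 in R141C cells, and -1.17 and -0.68 at day 6 against -4.22 and -5.18 at day 0 in WT cells. It rose by 4.08 ± 0.56 in R141C cells (16.9-fold, limma adjusted p = 0.00589) and by 3.77 ± 0.56 in WT cells (13.7-fold, adjusted p = 0.00508).

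In cluster D, Hoxd8, a trunk gene, had -0.09 and -0.44 at day 6 against -3.67 and -2.70 at day 0 in R141C cells, and -2.0 and -1.55 at day 6 against -5.50 and -6.54 at day 0 in WT cells. It rose by 2.92 ± 0.45 in R141C cells (limma adjusted p = 0.00880) and by 4.24 ± 0.45 in WT cells (adjusted p = 0.00170). Hoxd4, a retinoic acid responsive gene of the hindbrain in the mouse, had 0.50 and -0.87 at day 6 against -3.32 and -3.93 at day 0 in R141C cells, and -1.73 and -1.80 at day 6 against -5.43 and -8.59 at day 0 in WT cells. Its WT day 0 replicates lay 3.16 log2 units apart, and replicate 2 was not above background, as for Hoxd8. The difference was 3.44 ± 0.97 in R141C cells (limma adjusted p = 0.0587) and 5.25 ± 0.97 in WT cells (38.1-fold, adjusted p = 0.0111). For Hoxd4, the R141C difference passed without WT day 0 replicate 1 or 2 (adjusted p = 0.00955) and the WT call was lost without WT day 6 replicate 1 or 2 (adjusted p = 0.0590 to 0.0621). The other middle genes that rose in both genotypes were Hoxc4, Hoxc5 and Hoxc8. Hoxc4 rose by 3.16 in R141C cells and by 2.76 in WT cells (limma adjusted p = 0.00374 and 0.00385). Hoxc5 and Hoxc8 were above background on no day 0 array, and their rises were at least 4.95-fold and 5.93-fold in R141C cells and at least 2.55-fold and 2.53-fold in WT cells. For Hoxc5, the R141C call was lost without R141C day 0 replicate 1 or R141C day 6 replicate 1 (adjusted p = 0.0563 to 0.0828) and the WT call was lost without WT day 0 replicate 1 or WT day 6 replicate 1 or 2 (adjusted p = 0.0504 to 0.0991). For Hoxc8, the WT call was lost without WT day 0 replicate 1 or WT day 6 replicate 1 or 2 (adjusted p = 0.0519 to 0.155). Hoxb7, another trunk gene, rose in R141C cells by 2.77 ± 0.73 (limma adjusted p = 0.0489), and its difference in WT cells was 1.83 ± 0.73 (adjusted p = 0.119). For Hoxb7, the R141C call was lost without WT day 0 replicate 1 or 2, R141C day 0 replicate 1 or 2, WT day 6 replicate 1 or 2 or R141C day 6 replicate 1 (adjusted p = 0.0612 to 0.184) and the WT difference passed without R141C day 6 replicate 1 or 2 (adjusted p = 0.0470). Of cluster A, Hoxa7, a trunk gene, had 1.17 and -0.71 at day 6 against -0.95 and -1.91 at day 0 in R141C cells, and -2.31 and -1.58 at day 6 against -1.84 and -2.75 at day 0 in WT cells. Hoxa4, Hoxa6 and Hoxa7 passed the test in neither genotype, with differences of 0.13 to 1.66 in R141C cells. In WT cells Hoxa4 had a difference of -0.06 and Hoxa7 of 0.35, while Hoxa6 was above background on neither day 6 array and at least 2.94-fold lower than at day 0 (limma adjusted p = 0.115). For Hoxa7, the R141C difference passed without R141C day 6 replicate 2 with an adjusted p just under the threshold. For Hoxa6, the WT difference, lower at day 6, passed without WT day 0 replicate 2 (adjusted p = 0.00648).

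The posterior set was mixed. In R141C cells 4 of 15 tested posterior genes rose and 0 fell (median 2.66), and in WT cells 3 rose and 2 fell (median 0.74, or 0.41 with dim genes at their bound). Hoxc9, which sets the thoracic level of the spinal cord, had 1.67 and 1.27 at day 6 against -1.73 and -4.07 at day 0 in R141C cells, and -1.41 and 0.48 at day 6 against -4.80 and -5.89 at day 0 in WT cells. It rose by 4.37 ± 0.90 in R141C cells (20.7-fold, limma adjusted p = 0.0223) and by 4.88 ± 0.90 in WT cells (29.5-fold, adjusted p = 0.0108). For Hoxc9, the R141C call was lost without R141C day 0 replicate 2 or R141C day 6 replicate 1 or 2 (adjusted p = 0.0688 to 0.0888) and the WT call was lost without WT day 0 replicate 2 or WT day 6 replicate 2 (adjusted p = 0.0541 to 0.0646). Hoxd9, a gene of the lower trunk, had 0.87 and 0.25 at day 6 against -3.45 and -3.21 at day 0 in R141C cells, and -1.63 and -1.04 at day 6 against -5.16 and -7.98 at day 0 in WT cells. The rise was 3.89 ± 0.83 in R141C cells (limma adjusted p = 0.0251) and 5.23 ± 0.83 in WT cells (37.6-fold, adjusted p = 0.00654). Hoxd9 was not above background on WT day 0 replicate 2. For Hoxd9, the R141C call was lost without R141C day 0 replicate 1 or 2 or R141C day 6 replicate 1 or 2 (adjusted p = 0.0674 to 0.116).

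Hoxa13, a gene of the digits, the hindgut end and the allantois, came up from below background. It had -2.14 and -3.13 at day 6 against -7.88 and -7.66 at day 0 in R141C cells, and -5.79 and -4.09 at day 6 against -7.51 and -7.10 at day 0 in WT cells. Both R141C day 6 arrays and WT day 6 replicate 2 were above background, and the other 5 arrays were not. The rise was at least 12.5-fold in R141C cells (limma adjusted p = 0.00315) and at least 3.02-fold in WT cells (adjusted p = 0.0287). For Hoxa13, the WT call was lost without WT day 0 replicate 1 or 2 or WT day 6 replicate 2 (adjusted p = 0.0758 to 0.112). A dimmer Hoxa13 probe, above background on 2 arrays, gave differences of 2.26 and 0.28 in R141C and WT cells.

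Hoxc10, a gene of the lumbar level, rose in R141C cells by 4.38 ± 1.12 (20.8-fold, limma adjusted p = 0.0436), and in WT cells, where it was above background on neither day 0 array, it was at least 2.92-fold higher at day 6 without passing (adjusted p = 0.188). Its signals were -1.58 and -3.07 at day 6 against -5.40 and -8.01 at day 0 in R141C cells, and -6.17 and -3.54 at day 6 against -7.46 and -6.79 at day 0 in WT cells. R141C day 0 replicate 2 and WT day 6 replicate 1 were also not above background. For Hoxc10, the R141C call was lost without WT day 0 replicate 1 or 2, R141C day 0 replicate 1 or 2 or R141C day 6 replicate 1 or 2 (adjusted p = 0.0506 to 0.169). The other posterior genes, Hoxa9, Hoxa10, Hoxa11, Hoxb9, Hoxb13, Hoxc11, Hoxd10, Hoxd11 and Hoxd13, passed in neither genotype, with differences of -1.30 to 4.51 in R141C cells. In WT cells Hoxa10, Hoxc11 and Hoxd11 were above background on no array of 1 of the days, and the others had differences of -1.95 to 2.47. Among them Hoxc11 (adjusted p = 0.0915), Hoxa10 (adjusted p = 0.102) and Hoxa11 (adjusted p = 0.0896) had R141C differences of 3.78 to 4.51. For Hoxa9, the R141C difference passed without R141C day 6 replicate 2 (adjusted p = 0.0453). For Hoxd10, the R141C difference passed without R141C day 6 replicate 2 (adjusted p = 0.0334). For Hoxb13, the WT difference passed without R141C day 6 replicate 1 or 2 (adjusted p = 0.0477).

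The 2 Hox genes that fell in WT cells were both at the 5′ end of cluster C. Hoxc13, a gene of hair and nails, had -4.0 and -4.42 at day 6 against -3.15 and -3.30 at day 0 in R141C cells, and -5.93 and -6.59 at day 6 against -3.08 and -1.95 at day 0 in WT cells. It was not above background on either WT day 6 array, a fall of at least 7.23-fold (limma difference -3.75 ± 0.41, adjusted p = 0.00191), and its difference in R141C cells was -0.99 ± 0.41 (adjusted p = 0.163). Hoxc12, another hair follicle gene, fell in WT cells by at least 1.75-fold (limma difference -1.31 ± 0.37, adjusted p = 0.0444), against a difference of -0.27 ± 0.37 in R141C cells (adjusted p = 0.656). Hoxc13 stayed called in WT cells without any 1 array. For Hoxc12, the WT call was lost without WT day 0 replicate 1 or 2, R141C day 0 replicate 1 or 2 or WT day 6 replicate 1 or 2 (adjusted p = 0.0564 to 0.236).

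Over the 36 tested genes, the change over time fell with paralog group more in WT cells than in R141C cells. Spearman's rho between paralog group and difference, across the 36 genes, was -0.14 in R141C cells and -0.64 in WT cells. These are descriptions: genes of a cluster are neighbours, share arrays and are not independent. Over the alternative settings rho ranged from -0.45 to -0.06 in R141C cells and from -0.71 to -0.54 in WT cells. Over the 17 genes above background on all 8 arrays it was -0.45 in R141C and -0.60 in WT cells, so the genotypes lay closer together there.

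**Figure D4:**
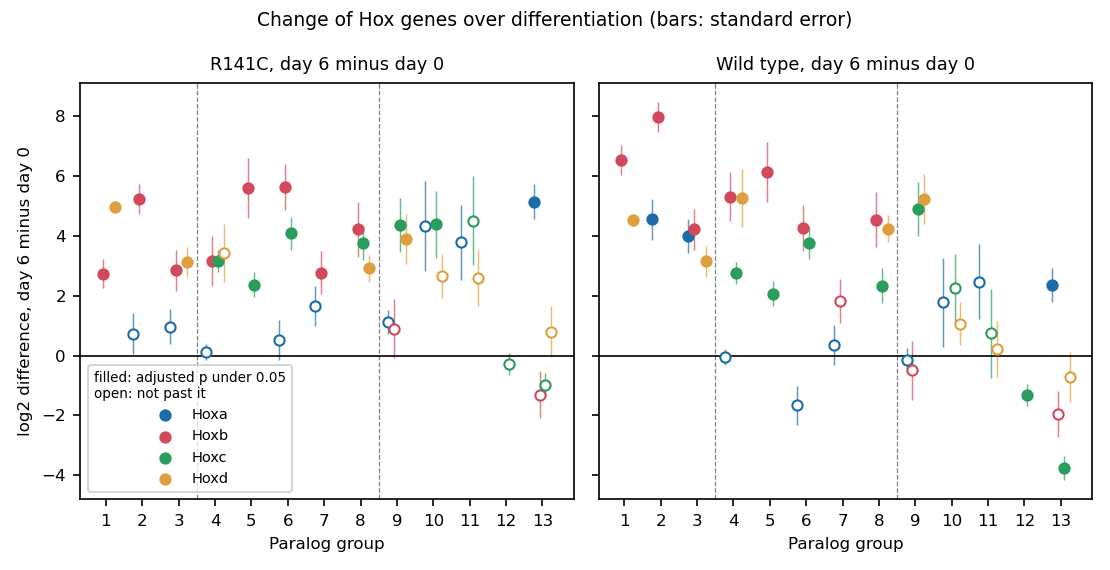
Difference between day 6 and day 0 (vertical axis, log2, with standard error) of the 36 tested Hox genes by paralog group (horizontal axis) in R141C cells (left) and WT cells (right); colours are clusters, dashed lines part the anterior, middle and posterior sets, and filled points passed an adjusted p of 0.05. Genes below background in a group are drawn at their measured difference. All 7 anterior genes rose in WT cells, and Hoxc12 and Hoxc13 fell there.

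Between the genotypes at day 6, posterior and most middle Hox genes had higher signals in R141C cells and 0 of 36 passed the adjusted threshold. Over all genes 0.0657% passed it in either direction, and the smallest limma adjusted p of a Hox gene was 0.220 (Hoxd1). At an unadjusted p under 0.05 there were 17 Hox genes higher and 1 lower, where 5.15% and 3.38% of all genes were so. The arrays of the groups did not overlap for 26 Hox genes higher and 2 lower in R141C cells, where 27.8% of all genes were higher and 16.5% lower without overlap. The median difference was 1.54 over the 36 genes and 0.07 over all genes. It was -0.30 in the anterior set (3 of 7 above 0), 1.49 in the middle set (13 of 14 above 0) and 2.31 in the posterior set (15 of 15 above 0, and a median of 1.95 with dim genes at their bound), where 58.1% of all genes were above 0. By cluster it was 1.31 in A, 1.04 in B, 1.93 in C and 1.71 in D.

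The 2 largest differences were those of a posterior gene each of clusters C and A. Hoxc11, a hindlimb gene, had -0.76 and -3.11 in R141C cells, against -7.61 and -4.05 in WT cells, at day 6. The difference was 3.90 ± 1.49 (14.9-fold, limma adjusted p = 0.544). Hoxa10, which patterns lumbar vertebrae and the uterus, had -0.63 and -3.40 in R141C cells, against -7.33 and -4.32 in WT cells, at day 6, a difference of 3.81 ± 1.49 (14.1-fold, limma adjusted p = 0.553). The R141C arrays were above the WT arrays for both genes, and replicates were also far apart. The gap was 3.56 between WT replicates for Hoxc11 and 2.77 between R141C replicates for Hoxa10. WT day 6 replicate 1 was not above background for either gene, so both folds rest in part on a dim value. Leaving out 1 array moved the difference between 2.11 and 5.68 for Hoxc11 and between 2.31 and 5.32 for Hoxa10, the lowest without WT day 6 replicate 1 and the highest without WT day 6 replicate 2 for both.

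Hoxa11, a gene of the forearm, kidney and uterus, had -0.57 and -1.63 in R141C cells, against -4.71 and -2.12 in WT cells, at day 6. The difference was 2.32 ± 1.24 (limma adjusted p = 0.675). Its partner in cluster D, Hoxd11, had -2.47 and -4.37 in R141C cells, against -6.69 and -5.51 in WT cells, at day 6, which is at least 3.86-fold (limma adjusted p = 0.491), since neither WT array was above background. Hoxc10 had -1.58 and -3.07 in R141C cells, against -6.17 and -3.54 in WT cells, at day 6, a difference of 2.52 ± 1.12 (limma adjusted p = 0.613). Hoxd10, also a gene of the lumbar level, had -1.75 and -3.62 in R141C cells, against -5.47 and -4.54 in WT cells, at day 6, a difference of 2.32 ± 0.73 (limma adjusted p = 0.456). The R141C arrays were above the WT arrays for all 4 of these genes. Replicate 1 was the higher one in R141C cells and the lower one in WT cells. For Hoxc10 and Hoxd10 that WT replicate was not above background.

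Hoxb9, a gene of the thoracic level, had 2.04 and -0.64 in R141C cells, against -1.90 and -1.53 in WT cells, at day 6, a difference of 2.42 ± 0.98 (limma adjusted p = 0.568). Hoxa13 had a difference of 2.31 ± 0.58 (limma adjusted p = 0.370) and Hoxc13, dim on both WT arrays, of at least 2.23-fold (adjusted p = 0.270). The other posterior genes tested, Hoxa9, Hoxb13, Hoxc9, Hoxd9 and Hoxd13, had differences of 1.31 to 1.93, and Hoxc12, dim on both WT arrays, was at least 1.17-fold higher. Hoxd1, of the anterior set, was 1.07 ± 0.20 higher (2.11-fold, adjusted p = 0.220), with both R141C arrays above both WT arrays.

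Anterior genes of cluster A ran the other way. Hoxa2 had -4.57 and -5.03 in R141C cells, against -2.07 and -2.22 in WT cells, at day 6, a difference of -2.66 ± 0.69 (6.31-fold lower, limma adjusted p = 0.385). Hoxa3 had a difference of -0.96 ± 0.58 (limma adjusted p = 0.703), with R141C replicate 1 just below both WT arrays and replicate 2 well below them. Hoxb1, Hoxb2 and Hoxb4, also below 0, had overlapping arrays and differences of -0.66 to -0.30. The chosen Hoxb3 probe gave 0.75 and its dimmer probe -0.73, so the sign of Hoxb3 depended on the probe.

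In the middle set Hoxa7 and Hoxb6 had the largest differences, of 2.18 ± 0.68 and 2.02 ± 0.77 (limma adjusted p = 0.456 and 0.544). Those of Hoxb7, Hoxb8, Hoxc6, Hoxc8, Hoxd4 and Hoxd8 were 1.47 to 1.94. Hoxa4, Hoxa6, Hoxb4, Hoxb5, Hoxc4 and Hoxc5 had differences of -0.66 to 1.04. Across the 36 genes Spearman's rho between paralog group and the day 6 difference was 0.72 (Pearson's r = 0.69), as a description, and 0.48 to 0.74 over the alternatives.

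One array of each genotype weighed on these values. R141C day 6 replicate 1 was above replicate 2 for 34 of 36 Hox genes (median gap 1.13), and WT day 6 replicate 1 was above replicate 2 for 9 of 36 (median gap -0.51, and -1.49 in the posterior set). With R141C day 6 replicate 1 left out the median difference over the 36 genes was 1.04, with WT day 6 replicate 1 left out 1.1, and with R141C day 6 replicate 2 left out 2.17; in each case 0 genes passed. Markers of other cell types moved with genotype and replicate. The sum over 11 cardiomyocyte markers was 11.7 and 153 on the R141C arrays, with Ryr2 not above background on the first, against 369 and 470 on the WT arrays; 11 of 11 had a difference below 0, with a median of -3.41 and 0 passing. Neural markers summed to 7.73 to 9.40 in R141C against 19.5 to 20.8 in WT cells, and markers of allantois and extraembryonic mesoderm to 130 to 177 against 96.8 to 126. The part of these cell types in the Hox differences was not tested.

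**Figure D5:**
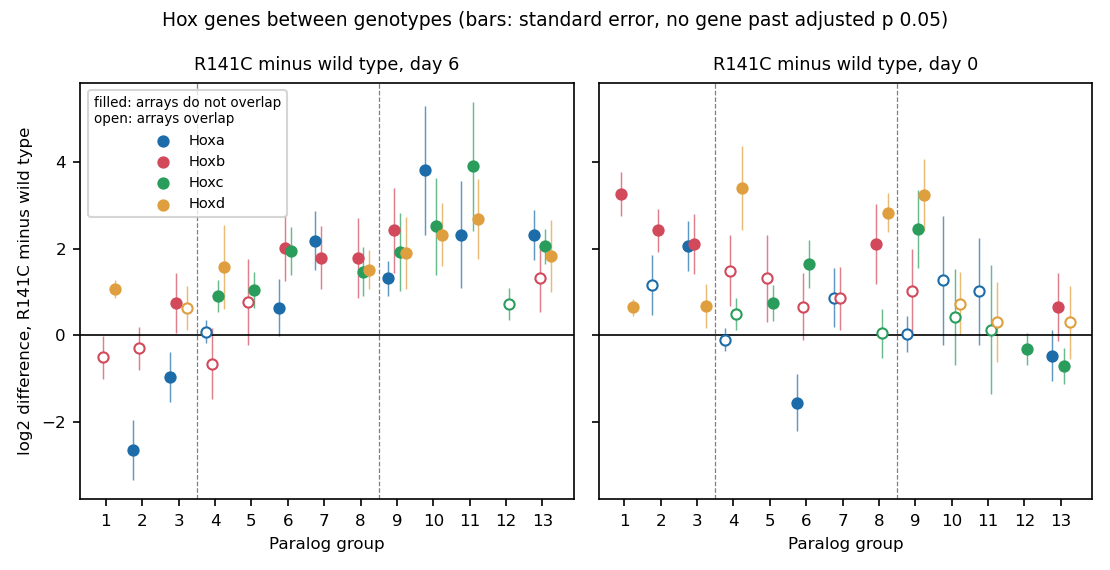
Difference between R141C and WT cells (vertical axis, log2, with standard error) of the 36 tested Hox genes by paralog group (horizontal axis) at day 6 (left) and day 0 (right); colours are clusters, dashed lines part the anterior, middle and posterior sets, and filled points are genes whose 2 groups do not overlap. Genes below background in a group are drawn at their measured difference. No gene passed an adjusted p of 0.05. At day 6 all 15 posterior genes were above 0, and at day 0 all 7 anterior genes were.

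At day 0, before differentiation, 31 of 36 Hox genes had a difference above 0, with the largest median in the anterior set. Again 0 of 36 passed, as did 0% of all genes. With limma 10 Hox genes, all higher, had an unadjusted p under 0.05, where 2.29% of all genes were so and higher, and the smallest adjusted p was 0.539 (Hoxb1 and Hoxd8). The arrays did not overlap for 14 Hox genes higher and 4 lower in R141C cells, where 14.5% and 14.3% of all genes were so. The median difference was 0.80 over the 36 genes and 0.01 over all genes, with 2.06 in the anterior set (7 of 7 above 0), 0.86 in the middle set (12 of 14) and 0.42 in the posterior set (12 of 15), where 50.6% of all genes were above 0. These counts include Hoxd3, Hoxc5, Hoxc8 and Hoxa13, which were above background on no day 0 array. Hoxd3 is among the 7 anterior genes, and Hoxd3 and Hoxc5 are among the 14 higher without overlap. Hoxa2 was above background on 1 array of each genotype, and its groups overlapped.

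Hoxb1 was 3.26 ± 0.50 higher (9.60-fold, limma adjusted p = 0.539), Hoxb2 2.42 ± 0.50 (adjusted p = 0.858) and Hoxb3 2.11 ± 0.69 (adjusted p = 0.999), with the array values given above. Both R141C arrays were above both WT arrays for these 3 genes, and Hoxb1 was not above background on WT replicate 2. In cluster D, Hoxd4 was 3.39 ± 0.97 higher (limma adjusted p = 0.999), Hoxd8 2.83 ± 0.45 (adjusted p = 0.539) and Hoxd9 3.24 ± 0.83 (adjusted p = 0.999). In each of these 3 genes WT replicate 2 was not above background and was the lowest array. Without WT day 0 replicate 2 the difference was 1.81 for Hoxd4 and 1.83 for Hoxd9. Hoxc9 was 2.45 ± 0.90 and Hoxb8 2.10 ± 0.92 higher (limma adjusted p = 0.999 for each).

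The 4 genes lower in R141C cells without overlap at day 0 were Hoxa6, Hoxa13, Hoxc12 and Hoxc13, with differences of -1.56 to -0.31, and Hoxa13 was below background on all 4 arrays. The median over the 36 genes was 0.31 with R141C day 0 replicate 1 left out, 0.55 with WT day 0 replicate 2 left out and 1.40 with R141C day 0 replicate 2 left out. Replicate 1 was above replicate 2 for 30 of 36 Hox genes in R141C cells (median gap 0.95) and for 26 of 36 in WT cells (median gap 0.89). With normexp background correction the median was 0.34. Spearman's rho with paralog group was -0.45, and -0.57 to -0.21 over the alternatives. The value of -0.21 was that of the 17 genes above background on all 8 arrays. Summed signals of other lists also differed between genotypes at day 0. The sum over posterior axis signals and factors (75th percentile of an array as 1) was 53.2 to 67.3 in R141C against 36.9 to 44.7 in WT cells, with 10 of 12 differences above 0, a median of 1.31 and 0 passing. The WT sums were mostly Fgf4, which is also on the ES cell list. Fgf4 had 4.50 and 3.34 in R141C and 5.04 and 4.81 in WT cells. Higher in R141C cells were Sp5 (3.98 and 5.03 against 2.73 and 2.17) and T (2.56 and 3.63 against 0.40 and 0.97). Markers of allantois and extraembryonic mesoderm summed to 38.9 to 72.9 in R141C against 36.2 to 37.3 in WT cells. Most of each sum came from Bmp4 and Ahnak. Bmp4 had 3.54 and 5.08 in R141C and 3.81 and 4.75 in WT cells. Ahnak had 4.52 and 5.08 in R141C and 4.14 and 2.98 in WT cells. Of the 9 marker differences 8 were above 0, with a median of 0.64. Markers of paraxial mesoderm summed to 12.3 to 15.1 in R141C against 17.4 to 47.8 in WT cells. Those sums were mostly Tcf15, with signals of 3.83 and 3.53 in R141C and 4.07 and 5.56 in WT cells. Of 7 tested paraxial genes 3 had a difference above 0, with a median of -0.12. The part of these lists in the day 0 Hox differences was not tested.

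As a description, the genotype differences had a different order along the clusters at the 2 days, and that order was not tested. The change of the genotype difference between the days was tested gene by gene. With limma 0 of 36 Hox genes passed, as did 0% of all genes, and 6 had an unadjusted p under 0.05, where 5.64% of all genes did. The 4 negative ones were anterior: Hoxa2 (-3.82 ± 0.97, adjusted p = 0.719), Hoxb1 (-3.77 ± 0.71, adjusted p = 0.495), Hoxa3 (-3.02 ± 0.82, adjusted p = 0.75) and Hoxb2 (-2.72 ± 0.71, adjusted p = 0.719). The 2 positive ones were posterior, Hoxa13 (adjusted p = 0.765) and Hoxc13 (adjusted p = 0.654), and no size is given for them, since Hoxa13 was below background on all 4 day 0 arrays and Hoxc13 on both WT day 6 arrays. The median was -2.72 in the anterior set, against 0.09 over all genes. It is not given for the posterior set, where 7 of 15 tested genes had a group with no array above background. Genes that rose in one genotype alone did not pass this test either: Hoxa2 and Hoxa3 as above, Hoxd4 (adjusted p = 0.922), Hoxb7 (adjusted p = 0.933) and Hoxc10 (adjusted p = 0.922).

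Known regulators of the clusters were read from lists chosen with earlier results of these data known. Of the 3 Cdx genes, Cdx2 rose in both genotypes, with signals of 4.76 and 4.30 at day 6 against 1.76 and 0.48 at day 0 in R141C cells and 1.54 and 1.76 at day 6 against -0.66 and -2.22 at day 0 in WT cells. The rise was 3.41 ± 0.60 in R141C and 3.08 ± 0.60 in WT cells (limma adjusted p = 0.0133 and 0.0128). For Cdx2, the R141C call was lost without R141C day 0 replicate 2 or R141C day 6 replicate 1 (adjusted p = 0.0558 to 0.0615) and the WT call was lost without WT day 6 replicate 1 or 2 (adjusted p = 0.0600 to 0.0775). Cdx2 was above its WT level on both R141C arrays at each day, by 2.89 ± 0.60 at day 6 (limma adjusted p = 0.276) and 2.56 ± 0.60 at day 0 (adjusted p = 0.999). Cdx1 had differences over time of -2.51 and -2.57 (limma adjusted p = 0.0814 and 0.0588 in R141C and WT cells). For Cdx1, the R141C difference passed without WT day 0 replicate 1 or 2 (adjusted p = 0.00459) and the WT difference passed without WT day 0 replicate 1 (adjusted p = 0.00270). The third, Cdx4, had -4.49 and -7.74 at day 6 against -5.06 and -4.97 at day 0 in R141C cells, and -7.5 and -7.06 at day 6 against -6.24 and -6.97 at day 0 in WT cells. It was above background on R141C day 6 replicate 1 and both R141C day 0 arrays and on no WT array. Its R141C difference did not pass (limma adjusted p = 0.474), and it passed, lower at day 6, without R141C day 6 replicate 1 (adjusted p = 0.0148).

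Of 17 tested genes of retinoic acid supply, breakdown and reception, 3 rose and 0 fell in R141C cells, and 7 rose and 2 fell in WT cells. For this and the lists that follow, the shares over all genes are those above, 7.60% rising and 8.03% falling in R141C cells and 11.0% rising and 12.9% falling in WT cells, and lists this short are described by their counts alone. Both genotypes shared rises of Cyp26a1 and Cyp26b1, which break retinoic acid down (3.35 and 2.42 in R141C, 4.66 and 3.67 in WT cells), and of the receptor gene Rarb (3.35 and 5.02). Stra6, which takes up retinol, rose in WT cells by 2.67 ± 0.48 (limma adjusted p = 0.0101) and had a difference of -0.07 in R141C cells (adjusted p = 0.942). Of 9 Hox cofactor genes 2 rose in R141C cells and 6 in WT cells. Meis2 and Meis1 rose by 5.4 and 5.14 in WT cells (limma adjusted p = 0.00488 and 0.00302) and had differences of 2.73 and 2.40 in R141C cells (adjusted p = 0.0623 and 0.0515). Between genotypes 0 genes of these 3 lists passed at either day.

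Of 12 tested posterior axis signals and factors, 5 rose and 1 fell in R141C cells and 6 rose and 1 fell in WT cells. Evx1, at the 5′ flank of cluster A, rose by 3.12 in R141C and 4.22 in WT cells (limma adjusted p = 0.0431 and 0.0117). Among hindbrain factors, Gbx2 fell in both genotypes, and Egr2 rose by 2.48 in WT cells (limma adjusted p = 0.00357). Of 23 Polycomb and trithorax genes, 3 rose and 3 fell in R141C cells, and 4 rose and 7 fell in WT cells, among them Phc1, a Polycomb subunit, with differences of -1.81 and -1.97. Of 27 listed noncoding and flanking genes of the clusters, 20 had a probe, and 1 differed between genotypes at day 6. Hoxaas3, an antisense RNA of cluster A, had -3.30 and -3.73 in R141C cells, against -7.53 and -7.05, both below background, in WT cells, at least 3.61-fold higher (limma adjusted p = 0.0286). That call was lost without WT day 0 replicate 1 or 2, R141C day 0 replicate 1 or 2, WT day 6 replicate 1 or 2 or R141C day 6 replicate 1 (adjusted p = 0.0555 to 0.245). Over the same comparison 0.0270% of all genes were called higher.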

How the data were processed

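RNA of mouse ES cells was measured on 8 single-colour Agilent arrays, 2 in each of 4 groups, with 300 ng of RNA labelled with Cy3, per the labels. Per the file headers, the scanner files came from Feature Extraction 11.5.1.1, while the submitters' processing notes name 10.5.1.1. The authors deposited a processed signal, which is an intensity after background subtraction without normalization between arrays, and the deposited mean and background intensities are uncorrected. Deposited spot flags (other) take the values 0 and 1. The value table of the series, also deposited, holds log2 values with medians near 9.0 on each array (8.986 to 9.038), and its filter is not given in the sources used here. Probe positions are on mm9, per the file headers.

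Of 62976 spots per array, 59305 were not controls, and 131 to 251 marked as outliers were left out. No saturated spot was found. Repeated spots were averaged, log2 signals were shifted to a 75th percentile of 0, and each gene took its probe with the highest mean signal. Genes that both arrays of some group showed above background were tested, 25892 of 34736 names. limma 3.58.1 in R 4.3.3 fitted a mean for each of the 4 groups over all 8 arrays (residual degrees of freedom 4, prior 2.7), with two-sided tests and Benjamini-Hochberg adjustment over all genes tested, and the script was tested on simulated data. The number of arrays limits the precision. Figures used Python 3.11.15 and matplotlib 3.10.9.

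The members and lists were chosen with earlier results of these data known. Values in every array are given for the 8 members with the largest difference among those without overlap in each comparison between 2 groups, the 2 with the smallest p, and the 2 brightest of each cluster at day 6. A bound replaces a fold where a group had no array above background, and a fold was kept where 1 of its 2 arrays was. From the other lists up to 4 passing genes are named, and all 3 Cdx genes. Some results of the hindbrain list are not reported here. Genes whose call changed without 1 array were named after their values were seen. Alternatives were normexp (offset 50), quantile normalization, shifting arrays to equal medians, the value table, dropping the filter or asking for all 8 arrays, a robust eBayes with trend, fits of the compared arrays alone, averaging probes per gene, a block for the replicate number, and fits without 1 array. Crossed replicate numbers at day 0 were added after the data had been seen.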

Additional observations from a re-analysis of the deposited data

How the results depend on the processing

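No Hox gene passed between genotypes at either day, or for the difference between the days, under any of the alternatives run. The median genotype difference over the tested Hox genes lay between 1.04 and 2.17 at day 6 and between 0.31 and 1.40 at day 0 without 1 array. The median of the difference between the days turned to -0.03 without R141C day 6 replicate 1, against 0.54 with all arrays, and reached 0.98 at most. For day 6 against day 0, leaving out 1 array gave 9 to 18 Hox genes passing and medians of 2.63 to 3.57 in R141C cells, and 13 to 24 genes and medians of 1.82 to 3.25 in WT cells; the fits without an array of the compared groups rest on 1 array in that group, assumed to vary like the other groups. Normexp lowered the medians to 2.18 in R141C cells and 0.98 in WT cells. With the filter on all 8 arrays only 17 Hox genes were tested, so that 10 passed in each genotype. The medians were then 2.85 in R141C cells and 3.77 in WT cells. The median shift moved the median of all genes from -0.12 to 0.00 for day 6 against day 0 in WT cells. Of 643 values of 35 named genes and comparisons under the alternatives, 624 stayed on their side of the threshold with the same sign and 19 lost the call with the same sign. Pairs not called with all arrays, which include all those between genotypes, had no call to lose. The main fit did not pair same-numbered replicates, and 2 arrays per group cannot settle whether they were paired. Replicate 1 deviations correlated at 0.066 between R141C and WT at day 6 and at -0.136 at day 0. Between the days they correlated at 0.339 in R141C cells and at 0 in WT cells. With the replicate block, 0, 0, 18 and 22 Hox genes passed in R141C against WT at day 6 and at day 0 and in day 6 against day 0 in R141C and WT cells, and with the R141C day 0 numbers crossed 0, 0, 17 and 21. Dim signals limit 21 of the 38 genes, which were not above background on every array.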
